A study of Homo sapiens with 12 samples.

Results

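The comparison of metformin alone with vehicle covered 6 of the 12 libraries made from KP4 cells, a human line of pancreatic ductal carcinoma whose genotype the labels give as WT. One group of cultures received DMSO (vehicle) and the other 10 mM metformin (Met), each for 24 h, with 3 libraries per group (replicates 1 to 3). The remaining libraries came from cells given 5 nM FK866 (FK), which blocks NAMPT of the NAD salvage pathway, or both agents (Met+FK), and entered the same fit, where they share the estimate of spread and give the metformin effect with FK866 that is set beside the main comparison at the end. Genes were kept where the mean over all 12 libraries reached at least 10 normalized counts, which left 15376 of 36601 genes. The cells are a single tumour line in culture, and nothing in the labels says that replicates came from separate passages, so p-values measure the spread between these libraries, which may be technical. According to the methods, FK866 was dissolved in DMSO and metformin in culture medium, and whether the Met cultures also received DMSO is not stated.

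Metformin, a drug for type 2 diabetes, inhibits complex I, the NADH dehydrogenase that feeds electrons into the mitochondrial respiratory chain. Loss of respiration is known to lower ATP, raise the ratio of NADH to NAD and limit the synthesis of aspartate. Cells sense such stress through the kinase AMPK, which restrains growth through mTORC1, and through kinases that phosphorylate the initiation factor eIF2alpha. The latter branch, the integrated stress response, slows most translation but favours that of ATF4, a transcription factor for amino acid synthesis, amino acid transport and the charging of transfer RNAs.

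Each of the 6 libraries held between 31684313 and 36246334 counted read pairs. Markers of ductal epithelium were uneven, with KRT18 at 18307 ± 394 (SD, n = 3) and SOX9 at 3781 ± 339.6 normalized counts in DMSO, whereas EPCAM had a mean of 7.69 and the ductal gene CFTR had no reads in any of the 6 libraries. The summed level of the 4 mesenchymal markers lay between 115861 and 125863 in DMSO, nearly all of it VIM. Acinar and endocrine markers summed to at most 1.05 normalized counts in any of these libraries. Of the immune markers, CD3E and LYZ stayed near 0, while CD68 and PTPRC together held most of a sum of 1101 to 1243 in DMSO and 917 to 977 in Met. The summed ductal markers lay between 25327 and 26266 in DMSO and between 16512 and 19694 in Met. Most of this sum was KRT18, whose mean was 10421 in Met. Of the other tested members, KRT7, KRT8 and KRT19 had lower means in Met, and CDH1, SOX9 and MUC1 had higher means. In RNA from bulk cultures, fewer cells of a type or state and less RNA per cell cannot be told apart.

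Metformin moved a large share of the transcriptome in both directions. A gene counted as a DEG where limma-trend gave an adjusted p-value under 0.05 together with a change of more than 1.5-fold (0.585 in log2 units), and below "rose" and "fell" are used for DEGs. By this rule 1964 genes rose, 12.8% of those tested, and 1566 fell, 10.2%. The adjusted p-value alone put 24.9% of genes higher and 25.9% lower. The median log2 fold change was 0.85 among genes that rose and −0.81 among those that fell, and 79 and 20 genes respectively passed 4-fold. Genes that rose started from a lower level, with a median of 167 normalized counts in DMSO against 991 for those that fell and 684 for all genes tested. Among 3855 genes with a mean from 10 to 100 normalized counts, 18.2% rose and 11.1% fell. Of 555 genes whose mean reached 10000, 6.49% rose and 19.6% fell. The spread between replicates shrank with level, and the median SD of log2 values within groups was 0.31 in the lowest band, 0.14 from 100 to 1000, 0.10 from 1000 to 10000 and 0.09 above 10000. The median standard error of a log2 fold change was 0.27 in the lowest band and 0.0793 in the highest.

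Base composition and gene length moved with the comparison. The median GC content of the canonical transcript was 43.8% for genes that rose, 54.9% for genes that fell and 48.5% for all genes tested, and the median genomic span was 47274, 15459 and 28474 bases. Per 10 percentage points of GC content, the log2 level relative to the mean of the 12 libraries changed by 0.196, 0.0429 and 0.18 in DMSO replicates 1 to 3 and by −0.0849, −0.139 and 0.0801 in Met replicates 1 to 3. DMSO replicate 2 and Met replicate 3 overlapped in this slope. With the dependence on GC content and transcript length taken out of each library by a smooth trend, 1514 genes rose and 1566 fell. These were not all the same genes, since 2479 of the 3530 DEGs of the main fit were shared with this one. The part of GC content in the changes below was not tested, and genes named below whose call ends with this trend removed are given. Scaling mattered as well. Over all genes the median log2 fold change was 0.012 with the deposited scaling, and scaling every library to an equal total put it at 0.134, since the summed normalized counts of the Met libraries were lower. Genes that rose then made up 73.4% of calls in place of 55.6%. Of 2501 long non-coding RNA genes 16.3% rose and 9.56% fell, against 12.1% and 10.3% of 12796 protein-coding genes.

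**Figure D1:**
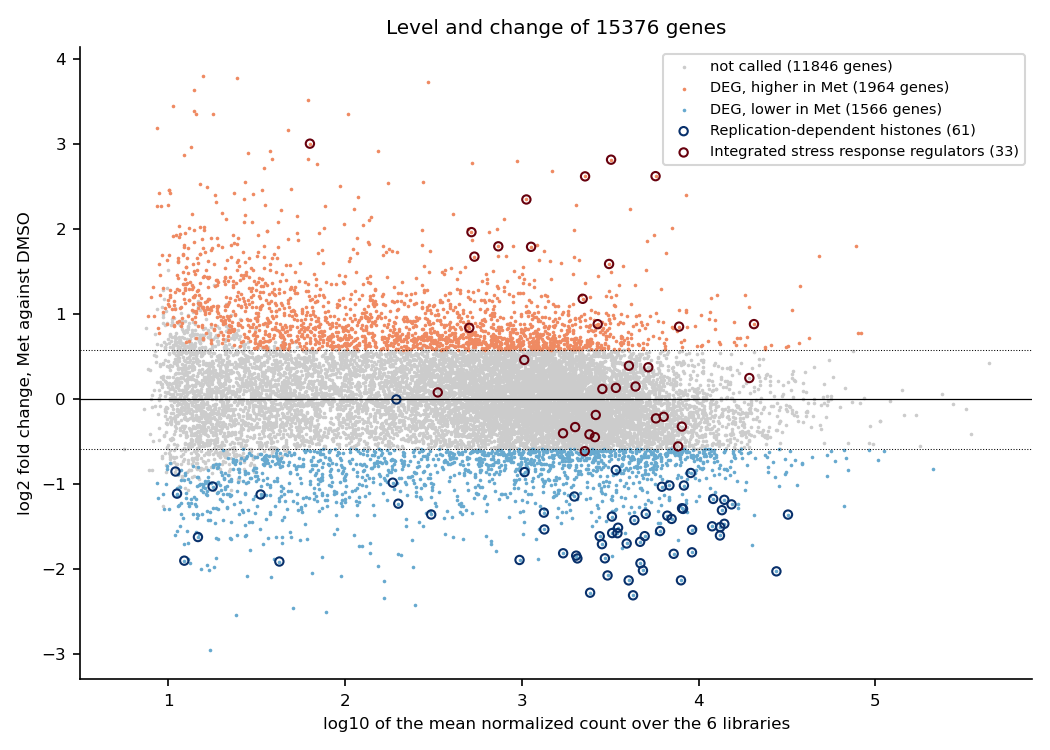
Mean normalized count over the 6 libraries (log10 scale, x axis) against the log2 fold change of Met against DMSO (y axis) for each tested gene, with dotted lines at a fold change of 1.5. Genes that rose lie mostly to the left and genes that fell reach further right. The replication-dependent histones form a band of abundant genes below the lower line, while regulators of the integrated stress response reach the top.

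The tested genes were then read by function in 47 lists holding 1690 different tested genes, of which 174 rose and 337 fell. Counts for a list are to be read against 12.8% rising and 10.2% falling among all genes. Groups without overlap, given for single DEGs below, are to be read against 56.9% of all genes tested. In the text, a value in parentheses after a gene is its log2 fold change ± SE from limma-trend, and the largest adjusted p-value among the 162 genes picked by a fixed rule was 0.0207. Genes introduced by the words "other members" were chosen after their values were seen. The lists of DNA replication, mitosis and histones lay lowest, and those of the integrated stress response, amino acid transport and transfer RNA charging highest, although with the GC and length trend removed the median of the stress response list was 0.18 and below that of the circadian clock (0.31) and of NAD metabolism (0.21).

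**Figure D2:**
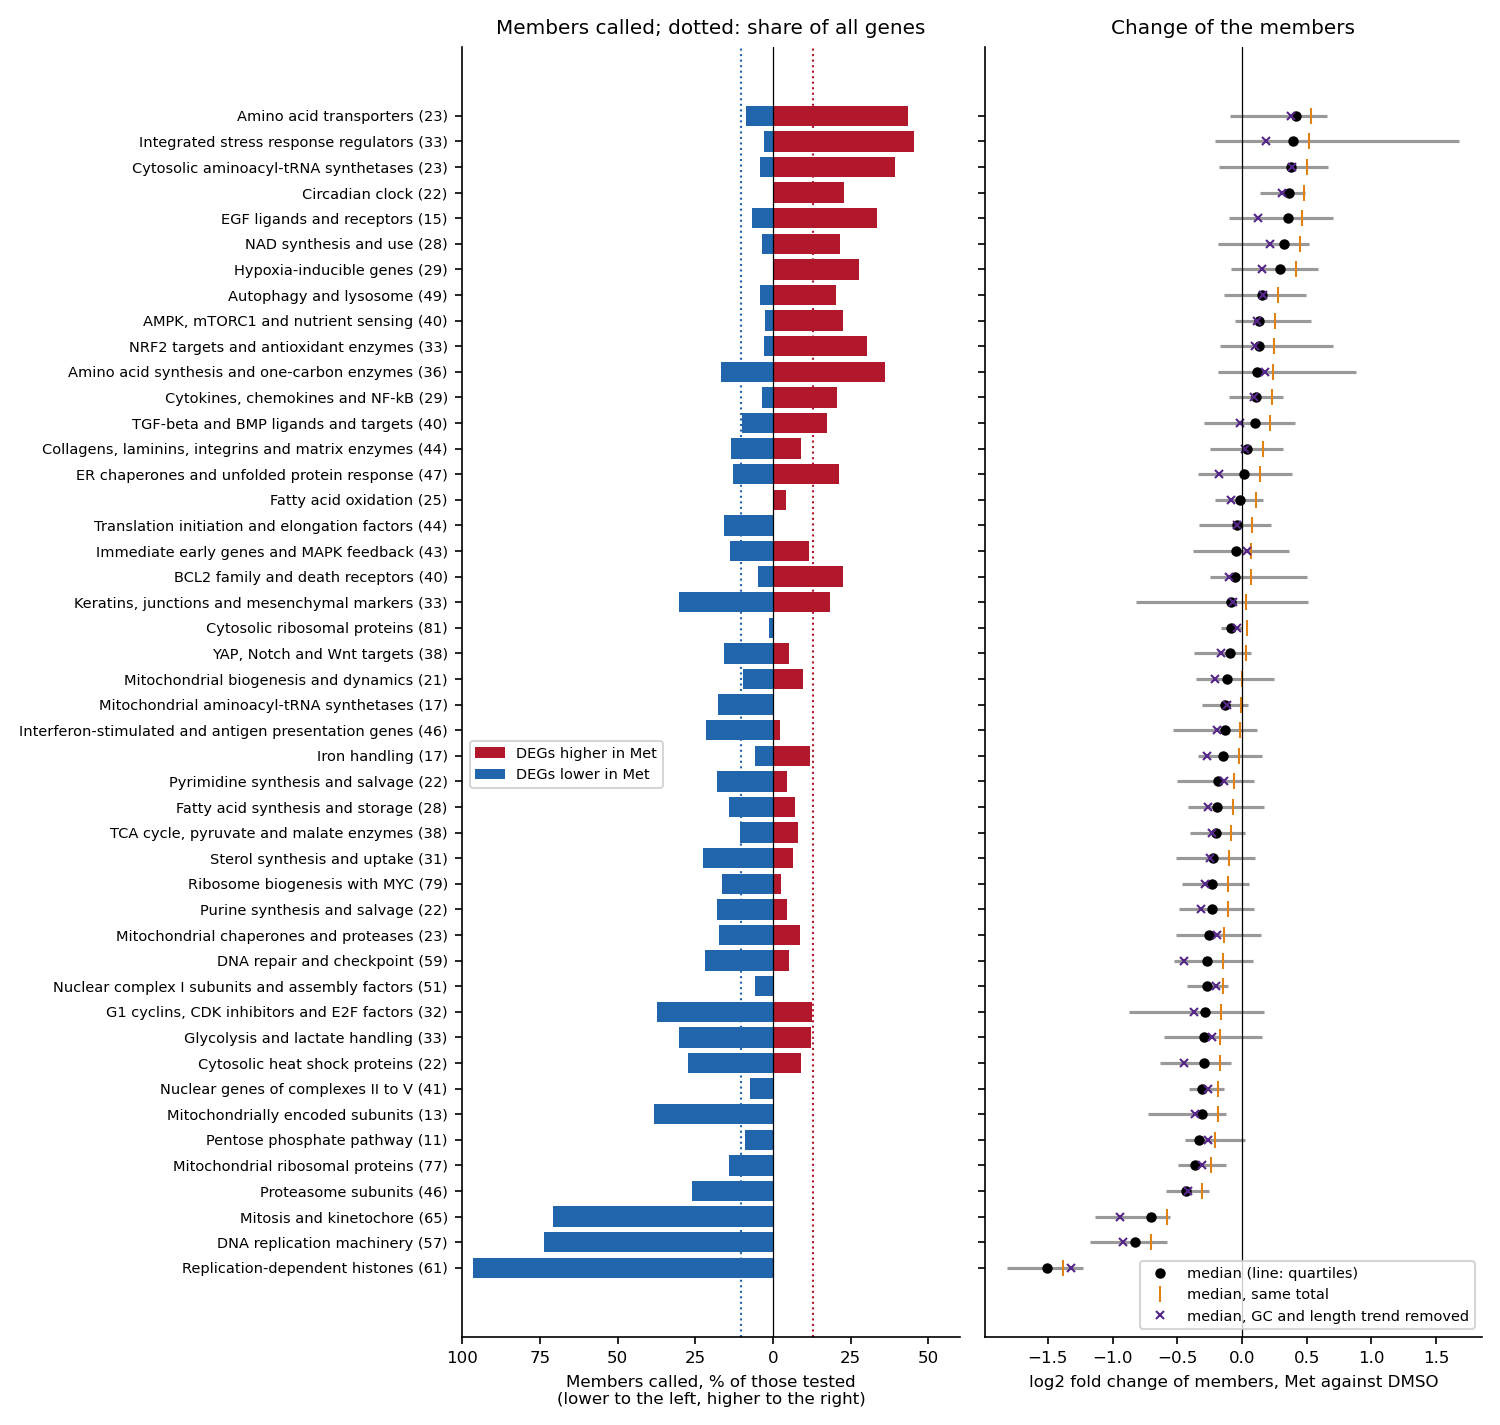
Gene lists ordered by median change, with the number of tested members in parentheses. Left, the percentage of members called lower (blue, to the left) or higher (red, to the right) in Met than in DMSO, with dotted lines at the shares of all tested genes, and right, the median log2 fold change (points) with quartiles (lines), and the median with equal library totals or with the GC and length trend removed. Only the 3 lists of histones, replication and mitosis have more than 50% of members in 1 direction.

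Regulators of the integrated stress response were among the genes with the highest rises. Of these, 15 of 33 tested members rose and 1 fell, with a median log2 fold change of 0.39 over the list. NUPR1, a small stress-induced chromatin protein, held 13.8, 9.85 and 16.4 normalized counts in the DMSO libraries and 102, 108 and 129 in the Met libraries. NUPR1 was higher in each Met library than in any DMSO library, a log2 fold change of 3.01 (SE 0.22, adjusted p = 1.01e-07 by limma-trend). DDIT3 (CHOP), a C/EBP-family factor that links lasting stress to cell death, lies on chromosome 12 from 57516588 to 57521737 (hg38) and rose far above its spread, as did the pseudokinase TRIB3, which binds and restrains ATF4 and AKT. The values were DDIT3 (2.82 ± 0.13) and TRIB3 (2.63 ± 0.12), and ATF3, a stress-induced repressor, reached 2.62 ± 0.076. Of the other members, CREBRF (1.97 ± 0.21), JDP2 (1.68 ± 0.10) and CEBPG (1.59 ± 0.12) rose, as did ATF4 itself (0.88 ± 0.072) from an already high level of 14469 ± 1091 normalized counts (SD, n = 3), and PPP1R15A, the phosphatase subunit that reverses eIF2alpha phosphorylation (1.18 ± 0.10). The kinases EIF2AK3 and EIF2AK4, which phosphorylate eIF2alpha, had log2 fold changes of 0.0808 and 0.13 and were not called. The list's single falling member was ATF5 (−0.61 ± 0.11), an ATF4 relative that acts in the mitochondrial stress response. The median of the list was 0.18 with the GC and length trend removed in place of 0.39. Not every fit without 1 library kept the call, which was lost for ATF5 without DMSO replicate 3 (−0.58) and Met replicate 2 (−0.55). ATF5 (−0.46) was not called with the GC and length trend removed, and ATF5 (−0.49) was not called with equal library totals.

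Enzymes that make amino acids and one-carbon units split in direction. Of these, 13 of 36 tested members rose and 6 fell. Normalized counts of ASNS, the synthetase that makes asparagine from aspartate, were 121, 122 and 83.9 in DMSO and 470.3, 449.8 and 378 in Met. All 3 ASNS values with metformin lay above the 3 without it, a log2 fold change of 1.99 (SE 0.16, adjusted p = 1.85e-07 by limma-trend). ASNS lies on chromosome 7 from 97851677 to 97872542. The mitochondrial folate enzyme ALDH1L2 (1.88 ± 0.28) rose with it, and among the other members so did CBS and CTH of cysteine synthesis, CBS (1.47 ± 0.095) and CTH (1.16 ± 0.14), the serine enzymes PHGDH (0.86 ± 0.077) and PSAT1 (1.22 ± 0.061) and the mitochondrial folate enzyme MTHFD2 (1.09 ± 0.076). Those that fell were led by TYMS (−1.45 ± 0.072), which makes thymidylate for DNA, and PYCR3 (−1.12 ± 0.18), a cytosolic proline enzyme, while the mitochondrial proline enzyme PYCR1 (0.99 ± 0.072), named among the other members, rose. Of amino acid carriers, 10 of 23 tested members rose and 2 fell. For SLC7A11, the cystine importer that feeds glutathione synthesis, the DMSO libraries gave 2287, 2855 and 1819.9 normalized counts and the Met libraries 9412, 9714 and 7252. The SLC7A11 ranges of the groups did not overlap and the Met libraries were the higher ones, a log2 fold change of 1.93 (SE 0.18, adjusted p = 1.04e-06 by limma-trend). The neutral amino acid carrier SLC43A1 (1.45 ± 0.15) also rose, whereas the taurine carrier SLC6A6 (−0.87 ± 0.13) and the carrier SLC7A6 (−0.67 ± 0.077) fell. Of the enzymes that charge transfer RNAs in the cytosol, 9 of 23 tested members rose and 1 fell. With vehicle, EPRS, the bifunctional synthetase for glutamate and proline, was measured at 6540.0, 8646 and 6271 normalized counts, and with metformin at 16940.2, 18182 and 13633. EPRS showed no overlap between groups and stood higher with metformin, a log2 fold change of 1.19 (SE 0.14, adjusted p = 9.63e-06 by limma-trend). Glycine's synthetase GARS (1.05 ± 0.064) rose, and FARSA (−0.70 ± 0.11), a subunit for phenylalanine, fell. Of their mitochondrial counterparts, 0 of 17 tested members rose and 3 fell, with SARS2 (−0.69 ± 0.12) and AARS2 (−0.64 ± 0.10) lowest. Amino acid enzymes that rose and fell numbered 14 and 3 with equal library totals, in place of 13 and 6. Mitochondrial synthetases that rose and fell numbered 0 and 1 with the GC and length trend removed and 0 and 0 with equal library totals, in place of 0 and 3. FARSA (−0.54), SARS2 (−0.53) and AARS2 (−0.54) were not called with the GC and length trend removed, and SLC7A6 (−0.55), FARSA (−0.58), SARS2 (−0.57) and AARS2 (−0.52) were not called with equal library totals.

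Since these genes rose together, the 250 bases before their RefSeq start were searched on both strands for TGATGNAA, the core of the element that ATF4 and C/EBP partners are known to bind. The element was in 170 of 11412 such windows over all tested genes with one (1.49%). Over all genes that rose it was in 32 of 1412 windows (2.27%), and over all that fell in 14 of 1141 (1.23%). By list it was in 4 of 10 windows of rising amino acid enzymes, 2 of 8 of rising cytosolic synthetases, 2 of 13 of rising regulators and 0 of 9 of rising carriers. Over these whole lists, called or not, it was in 4 of 25, 2 of 19, 3 of 29 and 1 of 20 windows. The matching stretches of members that rose, with up to 30 bases on each side, are shown because they let the shared letters be read beside the genes that rose. Each stretch is read on the strand of its gene, and capitals mark the match, which in CHAC1, GOT1, AARS and IARS is the reverse complement of the element.
ATF3 (GRCh38.p14, chr1:212565186-212565253, plus strand): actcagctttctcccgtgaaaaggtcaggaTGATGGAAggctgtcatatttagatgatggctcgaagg
CHAC1 (GRCh38.p14, chr15:40953232-40953299, plus strand): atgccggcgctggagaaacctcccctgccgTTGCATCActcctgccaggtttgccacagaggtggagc
ASNS (GRCh38.p14, chr7:97872439-97872506, minus strand): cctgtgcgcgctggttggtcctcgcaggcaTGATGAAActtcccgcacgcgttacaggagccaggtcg
BCAT1 (GRCh38.p14, chr12:24949112-24949179, minus strand): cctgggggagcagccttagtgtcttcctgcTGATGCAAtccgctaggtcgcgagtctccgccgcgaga
GOT1 (GRCh38.p14, chr10:99430785-99430852, minus strand): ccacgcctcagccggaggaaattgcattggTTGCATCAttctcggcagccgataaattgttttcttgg
MTHFD1L (GRCh38.p14, chr6:150866327-150866394, plus strand): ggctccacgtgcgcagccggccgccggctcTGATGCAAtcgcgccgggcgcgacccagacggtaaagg
AARS (GRCh38.p14, chr16:70289656-70289723, minus strand): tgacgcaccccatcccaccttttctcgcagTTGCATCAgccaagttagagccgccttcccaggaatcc
IARS (GRCh38.p14, chr9:92293698-92293740, minus strand): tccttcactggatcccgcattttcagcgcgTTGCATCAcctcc
Of the genes with a stretch shown, ASNS and ATF3 were described above, and among the other members the rest had log2 fold changes of 2.35 for CHAC1, 1.30 for BCAT1, 0.93 for GOT1, 0.71 for MTHFD1L, 0.67 for AARS and 0.61 for IARS. A match is a description of the letters, and windows without one, such as those of the rising carriers, say nothing of elements elsewhere. With 1 library left out, calls ended for IARS without DMSO replicate 1 (0.56). IARS (0.41) was not called with the GC and length trend removed.

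**Figure D3:**
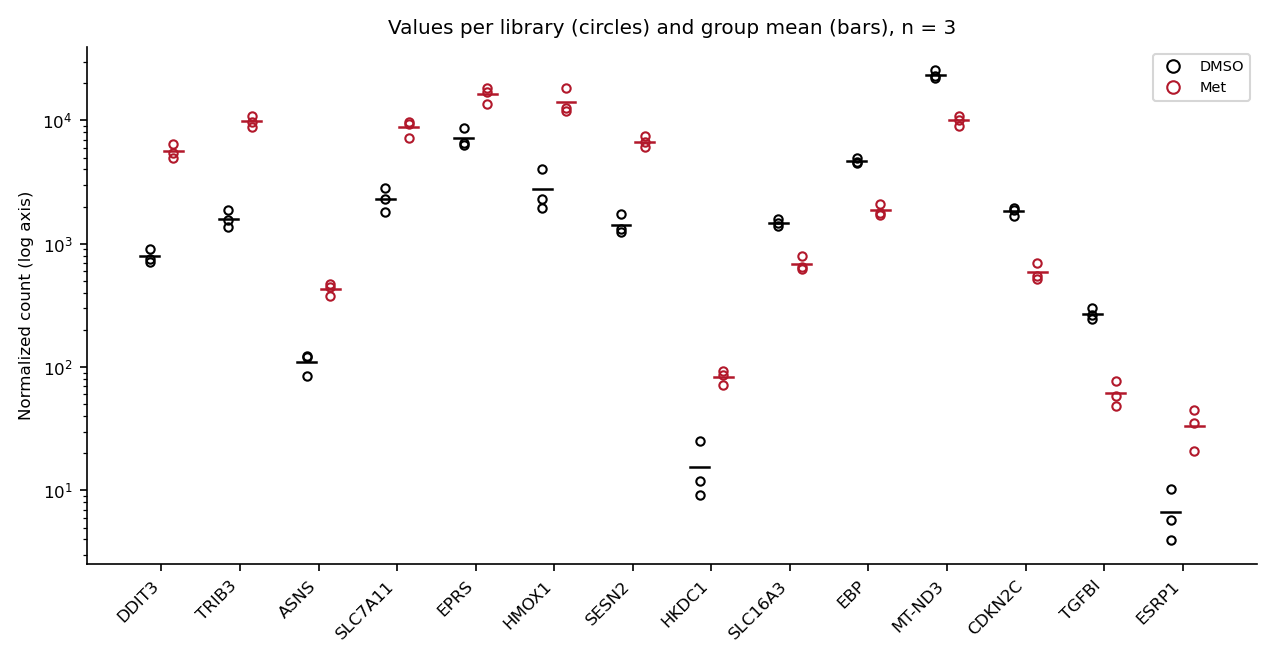
Normalized counts (log axis) of 14 genes in each DMSO library (black circles) and Met library (red circles), with the mean of 3 as a bar. The 3 Met circles of each gene lie wholly above or wholly below the 3 DMSO circles, as for 95.7% of all rising and 98.5% of all falling DEGs. Of all genes tested, 56.9% showed no overlap, and the DEGs were called from these same values. Low genes such as ESRP1 and HKDC1 show the widest spread.

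Other stress genes moved in both directions. Among chaperones of the endoplasmic reticulum and genes of its unfolded protein response, 10 of 47 tested members rose and 6 fell. ERN1, the sensor kinase IRE1 that splices XBP1, held 781, 635 and 703 normalized counts in the DMSO libraries and 2252, 2031 and 2274 in the Met libraries. ERN1 was higher in each Met library than in any DMSO library, a log2 fold change of 1.63 (SE 0.095, adjusted p = 1.22e-08 by limma-trend). The abundant chaperone BiP, HSPA5 (1.33 ± 0.089), rose, while SDF2L1 (−1.40 ± 0.13) and CALR (−0.92 ± 0.077), a BiP cofactor and the chaperone calreticulin, fell. The list held changes of both signs, and its median of 0.0131 became −0.18 with the GC and length trend removed. Cytosolic heat shock proteins lay mostly lower, and 2 of 22 tested members rose and 6 fell. Normalized counts of BAG3, a co-chaperone of HSP70 that serves autophagy, were 16347, 14913 and 16206 in DMSO and 8204, 8135 and 9291 in Met. All 3 BAG3 values with metformin lay below the 3 without it, a log2 fold change of −0.89 (SE 0.077, adjusted p = 4.67e-07 by limma-trend). HSP90AB1 (−0.84 ± 0.057), the constitutive HSP90, fell from 90294 ± 1334 to 50571 ± 1364 normalized counts (SD, n = 3). The rises of DNAJB4 (0.85 ± 0.24) and HSPA13 (0.72 ± 0.21), a pair of lesser chaperones, came with overlapping groups. That HSPA13 belongs among cytosolic proteins, as the list has it, is uncertain. Members of the endoplasmic reticulum list that rose and fell numbered 6 and 7 with the GC and length trend removed, in place of 10 and 6. The call was lost for HSPA13 without DMSO replicate 3 (0.60) and Met replicate 2 (0.59). DNAJB4 (0.52) and HSPA13 (0.36) were not called with the GC and length trend removed.

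The list of antioxidant enzymes and targets of NRF2, a factor that drives many of them, held 10 genes that rose and 1 that fell of 33 tested. For HMOX1, haem oxygenase, the DMSO libraries gave 4032, 2292 and 1954 normalized counts and the Met libraries 18207, 12524 and 11854. The HMOX1 ranges of the groups did not overlap and the Met libraries were the higher ones, a log2 fold change of 2.41 (SE 0.25, adjusted p = 3.07e-06 by limma-trend). Met replicates and DMSO replicates of HMOX1 each had a wide spread, with SDs of 3490.4 and 1115. The glutathione-degrading enzyme CHAC1 (2.35 ± 0.12) rose with it and the peroxide-removing PRDX2 (−0.79 ± 0.16) fell. SLC7A11 is also in the list of amino acid carriers, and CHAC1, a known ATF4 target, in that of the integrated stress response. Genes of autophagy and the lysosome rose in 10 of 49 cases and fell in 2. With vehicle, MAP1LC3B, the LC3 protein that coats autophagosomes, was measured at 5551, 5605 and 5439 normalized counts, and with metformin at 12651, 11496 and 9946. MAP1LC3B showed no overlap between groups and stood higher with metformin, a log2 fold change of 1.03 (SE 0.089, adjusted p = 4.28e-07 by limma-trend). WIPI1 (0.98 ± 0.082), which marks the forming autophagosome, rose, and GLA (−0.61 ± 0.10) and TFEB (−0.59 ± 0.12), a lysosomal galactosidase and the lysosomal master regulator, fell. In iron handling 2 of 17 rose (11.8%) and 1 fell (5.88%), no more than among all genes tested (12.8% and 10.2%). STEAP3, a ferrireductase of endosomes, held 14776, 11878 and 13418 normalized counts in the DMSO libraries and 7258, 7103 and 8380.2 in the Met libraries. STEAP3 was lower in each Met library than in any DMSO library, a log2 fold change of −0.82 (SE 0.09, adjusted p = 5.03e-06 by limma-trend). The ferritin heavy chain FTH1 (0.78 ± 0.092) and the iron-sulfur scaffold ISCU (0.61 ± 0.074) rose. Autophagy genes that rose and fell numbered 6 and 0 with the GC and length trend removed, in place of 10 and 2. Not every fit without 1 library kept the call, which was lost for GLA without DMSO replicate 1 (−0.54) and Met replicate 2 (−0.54), and for TFEB without DMSO replicate 1 (−0.52), DMSO replicate 2 (−0.58) and Met replicate 3 (−0.54), and for ISCU without DMSO replicate 3 (0.58) and Met replicate 1 (0.58). GLA (−0.58) and TFEB (−0.44) were not called with the GC and length trend removed, and GLA (−0.49) and TFEB (−0.47) were not called with equal library totals.

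In the list of AMPK, mTORC1 and nutrient sensing 9 of 40 genes rose and 1 fell. Normalized counts of SESN2, a leucine sensor that inhibits mTORC1, were 1729, 1313 and 1248 in DMSO and 6664, 6032 and 7512 in Met. All 3 SESN2 values with metformin lay above the 3 without it, a log2 fold change of 2.24 (SE 0.12, adjusted p = 7.78e-09 by limma-trend). SESN2 lies on chromosome 1 from 28259518 to 28282491. DDIT4 (1.87 ± 0.081), another mTORC1 inhibitor, rose with it, and both are also targets of ATF4. The falling member was the translation repressor EIF4EBP2 (−0.65 ± 0.069). Among other members, the AMPK subunit PRKAB2 (1.21 ± 0.09) and the Rag GTPases RRAGD (1.28 ± 0.14), RRAGB (1.02 ± 0.095) and RRAGC (0.86 ± 0.11), which bring mTORC1 to lysosomes, rose. Of the BCL2 family and death receptors, 9 of 40 tested members rose and 2 fell. For HRK, a BH3-only protein that promotes apoptosis, the DMSO libraries gave 60.01, 38.4 and 54.2 normalized counts and the Met libraries 352, 259.8 and 286. The HRK ranges of the groups did not overlap and the Met libraries were the higher ones, a log2 fold change of 2.55 (SE 0.18, adjusted p = 9.62e-08 by limma-trend). CASP10 (1.64 ± 0.34), an initiator caspase, rose from a low level of 9.93 normalized counts, while CASP2 (−0.67 ± 0.079) and FADD (−0.59 ± 0.10), a caspase and an adaptor of death receptors, fell. CASP10 passed the filter on the mean only through groups where it was higher. Of the other members, the pro-apoptotic BBC3 (1.30 ± 0.15) and PMAIP1 (0.96 ± 0.13) and the caspase inhibitors BIRC2 (0.94 ± 0.19) and XIAP (0.66 ± 0.12) rose side by side. Leaving out 1 library ended the call for FADD without DMSO replicate 1 (−0.56), DMSO replicate 2 (−0.58) and Met replicate 2 (−0.58). FADD (−0.43) and XIAP (0.29) were not called with the GC and length trend removed, and CASP2 (−0.55), FADD (−0.47) and EIF4EBP2 (−0.53) were not called with equal library totals.

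Transcripts for the respiratory chain, which contains the target of metformin, had medians below 0, and few nuclear members passed the fold threshold. Of the 13 protein genes of the mitochondrial genome, 0 rose and 5 fell, with a median of −0.31. With vehicle, MT-ND3, a subunit of complex I, was measured at 25395, 22860.2 and 22091 normalized counts, and with metformin at 9006, 10103 and 10950.1. MT-ND3 showed no overlap between groups and stood lower with metformin, a log2 fold change of −1.23 (SE 0.10, adjusted p = 1.97e-07 by limma-trend). The complex I subunits MT-ND6 (−0.88 ± 0.19) and MT-ND2 (−0.70 ± 0.11) also fell. MT-ND6 lies on the strand opposite to the others, and whether counting used strand is not given in the sources used here, so its value is uncertain. The genome as a whole did not separate the groups, since its share of counted read pairs was 4.05%, 3.27% and 4.11% in DMSO replicates 1 to 3 and 3.39%, 3.22% and 4.14% in Met replicates 1 to 3. All 3 DMSO shares lay within the range of the Met shares, and an exact permutation test gave p = 0.8 (two-sided, n = 3 against 3, smallest possible p = 0.1). Nuclear genes of complex I and its assembly numbered 51, of which 0 rose and 3 fell, with a median of −0.27. The share that fell, 5.88%, was below the 10.2% of all genes tested. By the adjusted p-value alone 30 were lower and 2 higher. FOXRED1, a complex I assembly factor, held 1756, 1650.3 and 1621 normalized counts in the DMSO libraries and 915, 872 and 1068 in the Met libraries. FOXRED1 was lower in each Met library than in any DMSO library, a log2 fold change of −0.82 (SE 0.093, adjusted p = 6.29e-06 by limma-trend). NDUFA2 (−0.61 ± 0.091) came next. Of 41 nuclear genes of complexes II to V 0 rose and 3 fell, with a median of −0.31, and by the adjusted p-value alone 27 were lower and 1 higher. Normalized counts of ATP5MC3, a gene for the c ring of ATP synthase, were 8295, 8351 and 7687 in DMSO and 4051, 4249 and 4397 in Met. All 3 ATP5MC3 values with metformin lay below the 3 without it, a log2 fold change of −0.94 (SE 0.089, adjusted p = 1.05e-06 by limma-trend). ATP5MC1 (−0.77 ± 0.11), which encodes the same ring protein, fell too. The quartiles of these lists, −0.42 to −0.11 for complex I and −0.41 to −0.14 for the others, lay below 0, and their medians with equal library totals were −0.15 and −0.19. Complex I genes that rose and fell numbered 0 and 1 with TMM scaling or without DMSO replicate 1 and 1 and 1 with equal library totals, in place of 0 and 3. Genes of complexes II to V that rose and fell numbered 0 and 5 with the GC and length trend removed, in place of 0 and 3. With 1 library left out, calls ended for NDUFA2 without DMSO replicate 1 (−0.56). NDUFA2 (−0.51) was not called with the GC and length trend removed, and NDUFA2 (−0.49) and MT-ND2 (−0.57) were not called with equal library totals. The median of the mitochondrially encoded list was −0.19 with equal library totals, −0.47 without DMSO replicate 2 and −0.47 without Met replicate 3 in place of −0.31.

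Of 77 proteins of the mitochondrial ribosome 0 rose and 11 fell, at a median of −0.36. For MRPL12, a stalk protein of the large subunit that also binds the mitochondrial RNA polymerase, the DMSO libraries gave 6294, 5818 and 5349 normalized counts and the Met libraries 3025, 3104 and 3511. The MRPL12 ranges of the groups did not overlap and the Met libraries were the lower ones, a log2 fold change of −0.86 (SE 0.11, adjusted p = 2.02e-05 by limma-trend). MRPL20 (−0.83 ± 0.091) fell as well. Among mitochondrial chaperones and proteases, 2 of 23 tested members rose and 4 fell. With vehicle, TOMM40, the import channel of the outer membrane, was measured at 12182, 10874 and 10742 normalized counts, and with metformin at 5786, 5589 and 6257. TOMM40 showed no overlap between groups and stood lower with metformin, a log2 fold change of −0.94 (SE 0.089, adjusted p = 1.07e-06 by limma-trend). The matrix chaperone HSPA9 (0.72 ± 0.066) and its exchange factor GRPEL2 (0.61 ± 0.10) rose, but HSPE1, the lid of the HSP60 chamber, fell (−0.87 ± 0.11). Regulators of mitochondrial biogenesis and dynamics included 2 that rose and 2 that fell of 21, 9.52% each way, against 12.8% and 10.2% of all genes tested. The mitophagy receptor BNIP3L (0.65 ± 0.14) rose, and PPRC1 (−0.65 ± 0.11) and NRF1 (−0.64 ± 0.10), a coactivator and a factor for nuclear-encoded respiratory genes, fell. Among other members, TFAM, which packages and transcribes mitochondrial DNA, had a log2 fold change of −0.0741 and was not called. Mitochondrial ribosomal proteins that rose and fell numbered 0 and 7 with equal library totals, in place of 0 and 11. The median of the mitochondrial ribosome list was −0.24 with equal library totals in place of −0.36. The call was lost for GRPEL2 without DMSO replicate 1 (0.56), DMSO replicate 3 (0.57) and Met replicate 2 (0.53), and for BNIP3L without DMSO replicate 3 (0.53) and Met replicate 1 (0.58), and for NRF1 without DMSO replicate 1 (−0.57). HSPA9 (0.49), GRPEL2 (0.32), BNIP3L (0.36) and PPRC1 (−0.56) were not called with the GC and length trend removed, and PPRC1 (−0.53) and NRF1 (−0.52) were not called with equal library totals.

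**Figure D4:**
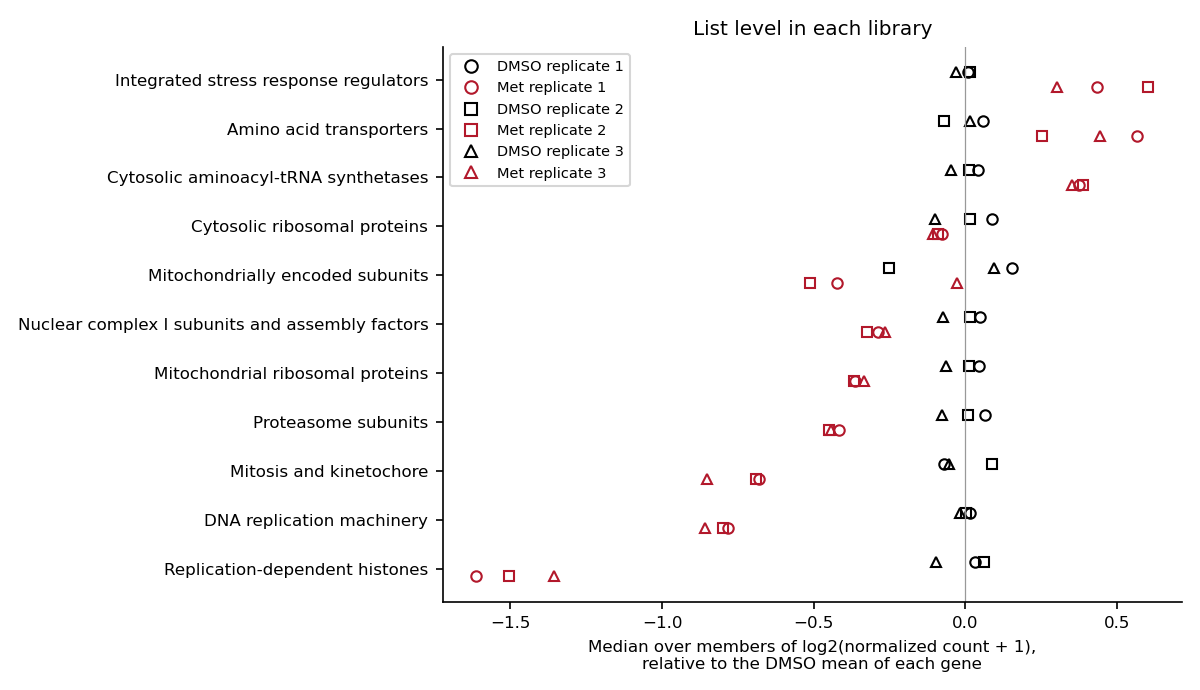
Level of 11 lists in each library, as the median over members of log2(normalized count + 1) relative to each gene's DMSO mean (x axis), with DMSO in black, Met in red and replicate numbers as shapes. Met and DMSO libraries separate for the replication, mitosis, histone, proteasome, nuclear mitochondrial and stress lists, and overlap for mitochondrially encoded subunits and cytosolic ribosomal proteins.

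Of enzymes and carriers of glycolysis, 4 of 33 tested members rose and 10 fell, with a median of −0.29. HKDC1, a low-abundance hexokinase, held 25.4, 11.8 and 9.21 normalized counts in the DMSO libraries and 93.0, 71.8 and 86.2 in the Met libraries. HKDC1 was higher in each Met library than in any DMSO library, a log2 fold change of 2.48 (SE 0.28, adjusted p = 6.81e-06 by limma-trend). HKDC1 lies on chromosome 10 from 69220332 to 69267552. PFKFB2 (0.97 ± 0.094), which makes the activator of phosphofructokinase, rose as well. The lactate exporter MCT4, SLC16A3 (−1.12 ± 0.12), and the glucose carrier SLC2A12 (−0.95 ± 0.11) fell most, and the abundant enzymes ENO1 (−0.61 ± 0.093) and TPI1 (−0.60 ± 0.092) fell by amounts just past the threshold. Among the other members, LDHA, which makes lactate, fell from 48194 ± 1183 to 28319 ± 165 normalized counts (−0.77 ± 0.057), whereas the hexokinase HK2 (0.66 ± 0.089) rose. Glycolysis genes that rose and fell numbered 4 and 6 with the GC and length trend removed, 5 and 6 with TMM scaling, 5 and 4 with equal library totals, 3 and 5 without Met replicate 1 and 4 and 5 without Met replicate 2, in place of 4 and 10. Not every fit without 1 library kept the call, which was lost for ENO1 without DMSO replicate 1 (−0.57), Met replicate 1 (−0.57) and Met replicate 2 (−0.57), and for TPI1 without DMSO replicate 1 (−0.57), Met replicate 1 (−0.58) and Met replicate 2 (−0.57), and for HK2 without Met replicate 1 (0.58). ENO1 (−0.47) and TPI1 (−0.48) were not called with the GC and length trend removed, and ENO1 (−0.48) and TPI1 (−0.48) were not called with equal library totals. The median of the glycolysis list was −0.17 with equal library totals in place of −0.29.

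Around the citric acid cycle 3 of 38 genes rose (7.89%) and 4 fell (10.5%). These shares were not above or were near the 12.8% and 10.2% of all genes tested. Normalized counts of IDH1, the cytosolic isocitrate dehydrogenase that makes NADPH, were 1679, 2079.9 and 1886 in DMSO and 5723, 6005 and 4960.2 in Met. All 3 IDH1 values with metformin lay above the 3 without it, a log2 fold change of 1.56 (SE 0.10, adjusted p = 4.14e-08 by limma-trend). PCK2 (1.503 ± 0.075), the mitochondrial enzyme that turns oxaloacetate into phosphoenolpyruvate, rose too. The carriers SLC25A10 (−0.83 ± 0.11) and SLC25A1 (−0.68 ± 0.093), which move dicarboxylates and citrate across the inner membrane, fell. In the pentose phosphate pathway 0 of 11 genes rose and 1 fell. For PRPS1, which makes the activated ribose of nucleotides, the DMSO libraries gave 6721, 6283 and 6070.5 normalized counts and the Met libraries 3627, 3485 and 3602. The PRPS1 ranges of the groups did not overlap and the Met libraries were the lower ones, a log2 fold change of −0.83 (SE 0.076, adjusted p = 7.44e-07 by limma-trend). For purines, 1 of 22 tested members rose and 4 fell, and for pyrimidines 1 of 22 rose and 4 fell. The ribonucleotide reductase subunits RRM2 (−1.71 ± 0.057) and RRM1 (−0.69 ± 0.07), counted with the purine list, fell, while the stress-inducible subunit RRM2B (0.64 ± 0.21) rose with overlapping groups. With vehicle, UPP1, uridine phosphorylase, was measured at 23641, 23395 and 21081 normalized counts, and with metformin at 74584, 70847 and 74365. UPP1 showed no overlap between groups and stood higher with metformin, a log2 fold change of 1.69 (SE 0.065, adjusted p = 2.6e-10 by limma-trend). The thymidine kinase TK1 (−1.58 ± 0.11) and the CTP synthase CTPS1 (−0.89 ± 0.073) fell. Genes around the citric acid cycle that rose and fell numbered 2 and 1 with the GC and length trend removed, 4 and 3 with TMM scaling, 4 and 1 with equal library totals, 3 and 2 without Met replicate 1 and 4 and 7 without Met replicate 3, in place of 3 and 4. Purine genes that rose and fell numbered 1 and 1 with equal library totals, in place of 1 and 4. Leaving out 1 library ended the call for RRM2B without DMSO replicate 1 (0.60), DMSO replicate 3 (0.43), Met replicate 1 (0.62) and Met replicate 2 (0.54). SLC25A1 (−0.52) and RRM2B (0.27) were not called with the GC and length trend removed, and SLC25A1 (−0.56) and RRM1 (−0.56) were not called with equal library totals.

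Sterol synthesis and uptake included 2 genes that rose and 7 that fell of 31. EBP, an isomerase of the late steps of sterol synthesis, held 4966, 4484 and 4595 normalized counts in the DMSO libraries and 1764, 1722 and 2110.3 in the Met libraries. EBP was lower in each Met library than in any DMSO library, a log2 fold change of −1.33 (SE 0.11, adjusted p = 1.88e-07 by limma-trend). EBP lies on chromosome X from 48521799 to 48528716. The cholesterol exporters ABCA1 (0.96 ± 0.14) and ABCG1 (0.88 ± 0.16) rose. Fatty acid synthesis and storage held 2 rising and 4 falling genes of 28. Normalized counts of ELOVL7, an elongase of fatty acids, were 145, 131 and 119 in DMSO and 329, 329.8 and 269 in Met. All 3 ELOVL7 values with metformin lay above the 3 without it, a log2 fold change of 1.22 (SE 0.16, adjusted p = 2.25e-05 by limma-trend). The phosphatidate phosphatase LPIN2 (0.99 ± 0.084) rose, and the desaturase SCD5 (−0.97 ± 0.076) and the lipid droplet protein PLIN3 (−0.78 ± 0.10) fell. In fatty acid oxidation 1 of 25 genes rose and 0 fell. For PPARA, the nuclear receptor for fatty acids, the DMSO libraries gave 540.1, 524 and 564 normalized counts and the Met libraries 826, 941 and 893. The PPARA ranges of the groups did not overlap and the Met libraries were the higher ones, a log2 fold change of 0.71 (SE 0.11, adjusted p = 0.00014 by limma-trend). The list of NAD synthesis and use, which holds NAMPT, the enzyme that the study's second drug blocks, had 6 genes that rose and 1 that fell of 28. With vehicle, NMNAT2, which makes NAD from its mononucleotide in the cytosol, was measured at 76.2, 97.5 and 97.2 normalized counts, and with metformin at 191, 224 and 179. NMNAT2 showed no overlap between groups and stood higher with metformin, a log2 fold change of 1.13 (SE 0.15, adjusted p = 3.33e-05 by limma-trend). NNMT (0.99 ± 0.10), which methylates nicotinamide, rose, and NAPRT (−1.12 ± 0.22), the entry enzyme for nicotinic acid, fell from an already low 37.5 normalized counts. Among other members, NAMPT (0.69 ± 0.16) rose. Fatty acid synthesis genes that rose and fell numbered 2 and 2 with TMM scaling or without DMSO replicate 1 or without Met replicate 2 and 3 and 2 with equal library totals, in place of 2 and 4. NAD genes that rose and fell numbered 3 and 2 with the GC and length trend removed, in place of 6 and 1. PPARA (0.46) and NAMPT (0.33) were not called with the GC and length trend removed.

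The lists with the lowest medians belonged to the cell cycle. Replication-dependent histones, which package new DNA in S phase, fell in 59 of 61 cases and rose in 0, at a median of −1.505. HIST1H3J, a histone H3 gene of the large cluster, held 7138, 7664 and 6441 normalized counts in the DMSO libraries and 1249, 1540.2 and 1508 in the Met libraries. HIST1H3J was lower in each Met library than in any DMSO library, a log2 fold change of −2.31 (SE 0.16, adjusted p = 7.38e-08 by limma-trend). HIST1H3J lies on chromosome 6 from 27890382 to 27893106. Histone genes are near-identical copies, so counts of single members such as HIST1H2BM (−2.28 ± 0.14) are uncertain, whereas their sum is less so. Their share of counted read pairs was 1.45%, 1.51% and 1.35% in DMSO replicates 1 to 3 and 0.507%, 0.566% and 0.608% in Met replicates 1 to 3. The groups did not overlap, and the exact permutation test gave its smallest possible p = 0.1 (two-sided, n = 3 against 3). Other histones among the genes of largest fall were HIST1H4L (−2.13 ± 0.13), HIST1H1D (−2.13 ± 0.16), HIST1H2AB (−2.07 ± 0.14), HIST1H1B (−2.03 ± 0.15), HIST1H2AH (−2.02 ± 0.14) and HIST1H2BH (−1.93 ± 0.15). The libraries were made by depletion of ribosomal RNA, which keeps transcripts without a poly(A) tail such as these.

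Most of the machinery of DNA replication fell, and 0 of 57 tested members rose and 42 fell, at a median of −0.83. Normalized counts of RRM2, the S-phase subunit of ribonucleotide reductase, were 30529, 30928 and 31079.9 in DMSO and 9280.1, 9659 and 9264 in Met. All 3 RRM2 values with metformin lay below the 3 without it, a log2 fold change of −1.71 (SE 0.057, adjusted p = 4.22e-11 by limma-trend). RRM2 lies on chromosome 2 from 10120698 to 10211725. UHRF1 (−1.46 ± 0.079), which keeps DNA methylation at the fork, followed. Among the other members, the helicase subunits MCM2 (−1.32 ± 0.11), MCM3 (−1.11 ± 0.08), MCM4 (−1.17 ± 0.068), MCM5 (−1.27 ± 0.12) and MCM7 (−1.28 ± 0.10), the sliding clamp PCNA (−1.25 ± 0.075) and the origin factors ORC1 (−1.33 ± 0.11), CDT1 (−1.13 ± 0.13) and CDC45 (−1.23 ± 0.093) fell. Of genes of spindle, kinetochore and cytokinesis, 0 of 65 tested members rose and 46 fell, at a median of −0.70. For KIF20A, a kinesin of cytokinesis, the DMSO libraries gave 8458, 8627 and 8734 normalized counts and the Met libraries 2814, 2836 and 3021. The KIF20A ranges of the groups did not overlap and the Met libraries were the lower ones, a log2 fold change of −1.57 (SE 0.065, adjusted p = 4.75e-10 by limma-trend). CCNF (−1.49 ± 0.10), a cyclin that guides protein degradation, fell too. Of the other members, AURKB (−1.44 ± 0.11), PLK1 (−1.28 ± 0.10), CCNB1 (−1.09 ± 0.074), MKI67 (−1.07 ± 0.10) and FOXM1 (−0.97 ± 0.089) fell, the first pair being mitotic kinases, CCNB1 the mitotic cyclin and FOXM1 a factor that drives these genes. With the GC and length trend removed the medians were −0.92 for replication and −0.94 for mitosis, further from 0 than without it, and with equal library totals −0.70 and −0.58.

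The same 250 bases before the start were searched for TTTNGCGC, a form of the E2F site known from S-phase genes, and for CCAAT, the NFY box known from mitotic and histone promoters, both on either strand. The E2F form was in 292 of 11412 windows over all tested genes (2.56%), in 9 of 48 of the replication list, of which 7 among its 35 falling genes, 11 of 52 of falling histones, 3 of 40 of falling mitotic genes and 2 of 8 of rising cytosolic synthetases. CCAAT was in 34.8% of all windows, 21 of 35 of falling replication genes, 32 of 40 of falling mitotic genes and 44 of 52 of falling histones, and also in 6 of 10 of rising amino acid enzymes, 7 of 13 of rising stress regulators and 4 of 8 of rising cytosolic synthetases, so that it was not limited to falling genes. Over whole lists, called or not, CCAAT was in 29 of 48 windows of replication, 40 of 55 of mitosis and 45 of 54 of histones. The E2F form was in 4 of 55 of the whole mitosis list and 11 of 54 of the histone list. The box is thus not shown to go with the fall within a list. Stretches around the E2F form are shown for replication genes that fell, so that the letters can be seen beside the genes described above. Capitals mark the form on either strand of the gene.
MCM6 (GRCh38.p14, chr2:135876492-135876559, minus strand): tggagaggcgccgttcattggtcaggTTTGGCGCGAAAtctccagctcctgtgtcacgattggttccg
MCM7 (GRCh38.p14, chr7:100101398-100101436, minus strand): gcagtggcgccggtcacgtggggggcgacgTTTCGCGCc
POLA2 (GRCh38.p14, chr11:65261879-65261946, plus strand): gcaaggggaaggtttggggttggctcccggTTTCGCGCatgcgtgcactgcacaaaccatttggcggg
POLE (GRCh38.p14, chr12:132687343-132687390, minus strand): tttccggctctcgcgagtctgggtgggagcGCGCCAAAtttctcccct
POLE2 (GRCh38.p14, chr14:49688258-49688325, minus strand): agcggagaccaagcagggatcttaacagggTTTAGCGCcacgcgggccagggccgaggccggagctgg
CDT1 (GRCh38.p14, chr16:88803546-88803613, plus strand): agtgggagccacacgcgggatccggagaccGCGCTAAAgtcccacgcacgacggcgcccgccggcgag
ORC6 (GRCh38.p14, chr16:46689506-46689573, plus strand): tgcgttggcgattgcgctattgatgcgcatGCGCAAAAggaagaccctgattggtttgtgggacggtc
The window of MCM6 held 4 matches, and the capitals in its stretch cover an overlapping pair on opposite strands. Among other members, log2 fold changes were −0.78 for MCM6, −1.32, −0.68 and −0.83 for the polymerase subunits POLA2, POLE and POLE2, and −0.71 for ORC6, which helps to load the helicase. The matches describe letters and not binding. POLE (−0.56) was not called with equal library totals.

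Genes that set entry into S phase moved both ways, and 4 of 32 tested members rose and 12 fell. With vehicle, CDKN2C, the CDK4 and CDK6 inhibitor p18, was measured at 1876, 1667 and 1934 normalized counts, and with metformin at 523, 548 and 694. CDKN2C showed no overlap between groups and stood lower with metformin, a log2 fold change of −1.64 (SE 0.12, adjusted p = 1.25e-07 by limma-trend). E2F2 (−1.45 ± 0.16), an activator of S-phase genes, fell with it. The antiproliferative factor BTG1 (1.64 ± 0.078) and the D-type cyclin CCND2 (1.52 ± 0.10) rose, while among the other members the cyclins CCND1 (−0.73 ± 0.065), CCND3 (−1.28 ± 0.10) and CCNE1 (−0.64 ± 0.093) fell. The D-type cyclins thus differed in direction. Of genes of DNA repair and checkpoints, 3 of 59 tested members rose and 13 fell, at a median of −0.27. XRCC3, a gene of homologous recombination, held 1962, 1798 and 1841 normalized counts in the DMSO libraries and 611, 644 and 685 in the Met libraries. XRCC3 was lower in each Met library than in any DMSO library, a log2 fold change of −1.53 (SE 0.11, adjusted p = 7.45e-08 by limma-trend). RAD54L (−1.29 ± 0.11), a motor of the same pathway, fell. The genes RAD50 (0.68 ± 0.20) and ATM (0.67 ± 0.18), a repair scaffold and the damage kinase, rose. Repair genes that rose and fell numbered 0 and 22 with the GC and length trend removed, 4 and 8 with equal library totals, 5 and 11 without DMSO replicate 2, 0 and 17 without DMSO replicate 3 and 0 and 13 without Met replicate 2, in place of 3 and 13. Not every fit without 1 library kept the call, which was lost for RAD50 without DMSO replicate 3 (0.53) and Met replicate 2 (0.54), and for ATM without DMSO replicate 3 (0.54) and Met replicate 2 (0.55). CCNE1 (−0.55), RAD50 (0.35) and ATM (0.25) were not called with the GC and length trend removed, and CCNE1 (−0.52) was not called with equal library totals. The median of the repair list was −0.45 with the GC and length trend removed and −0.15 with equal library totals in place of −0.27.

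Among factors of ribosome biogenesis and the MYC network, 2 of 79 tested members rose and 13 fell. Normalized counts of MXD1, a MAX partner that opposes MYC, were 541, 527 and 637 in DMSO and 1534, 1452 and 1426 in Met. All 3 MXD1 values with metformin lay above the 3 without it, a log2 fold change of 1.37 (SE 0.10, adjusted p = 8.1e-08 by limma-trend). MXI1 (1.16 ± 0.11), another MYC antagonist, rose, and GRWD1 (−1.10 ± 0.11) and MXD3 (−1.10 ± 0.14), an assembly factor and a further MAX partner, fell. Among the other members, MYC had 0.38 ± 0.072 and did not pass the fold threshold. Of 81 cytosolic ribosomal proteins 0 rose and 1 fell, with a median of −0.0868, which turned to 0.0352 with equal library totals. For RPS26, a small-subunit protein, the DMSO libraries gave 12691, 12144 and 11001 normalized counts and the Met libraries 4998, 5072 and 5310.2. The RPS26 ranges of the groups did not overlap and the Met libraries were the lower ones, a log2 fold change of −1.22 (SE 0.10, adjusted p = 1.85e-07 by limma-trend). RPS26 has near-identical pseudogenes, so its value is uncertain. The class held 6.31%, 6.21% and 5.74% of read pairs in DMSO replicates 1 to 3 and 6.43%, 6.39% and 6.29% in Met replicates 1 to 3, which overlapped (exact permutation test, two-sided, p = 0.2, n = 3 against 3). Adjusted over the 3 gene classes compared in this way, the exact p-values were 0.8 for the mitochondrial genome and 0.3 for both histones and ribosomal proteins. Of translation factors, 0 of 44 rose and 7 fell, and the list's median of −0.0414 turned to 0.0807 with equal library totals. With vehicle, EIF4A3, a helicase of the exon junction complex, was measured at 6426, 6303 and 5998 normalized counts, and with metformin at 3718, 3716 and 3662. EIF4A3 showed no overlap between groups and stood lower with metformin, a log2 fold change of −0.75 (SE 0.07, adjusted p = 9.27e-07 by limma-trend). EIF5A (−0.75 ± 0.088), which helps ribosomes through difficult stretches, fell. Proteasome subunits fell in 12 of 46 cases and rose in 0, at a median of −0.43. PSMD13, a subunit of the regulatory particle, held 11665, 10711 and 10640.3 normalized counts in the DMSO libraries and 5987, 5717 and 6363 in the Met libraries. PSMD13 was lower in each Met library than in any DMSO library, a log2 fold change of −0.87 (SE 0.083, adjusted p = 1.22e-06 by limma-trend). PSME3 (−0.84 ± 0.086), a nuclear activator of the proteasome, fell too. Biogenesis genes that rose and fell numbered 2 and 7 with the GC and length trend removed and 3 and 6 with equal library totals, in place of 2 and 13. Translation factors that rose and fell numbered 3 and 2 with equal library totals and 3 and 7 without DMSO replicate 2, in place of 0 and 7. Proteasome subunits that rose and fell numbered 0 and 4 with equal library totals, in place of 0 and 12.

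Signalling lists held DEGs of both directions. Of immediate early genes and feedback inhibitors of MAPK signalling, 5 of 43 tested members rose (11.6%) and 6 fell (14.0%). These shares were near the 12.8% and 10.2% of all genes tested. Normalized counts of DUSP8, a phosphatase of stress-activated kinases, were 4.62, 3.94 and 4.09 in DMSO and 13.6, 9.45 and 18.3 in Met. All 3 DUSP8 values with metformin lay above the 3 without it, a log2 fold change of 1.46 (SE 0.36, adjusted p = 0.00374 by limma-trend). Its DMSO mean of 4.22 is near the floor, and it passed the filter on the mean only through groups where it was higher. KLF4 (1.10 ± 0.10), a zinc-finger factor, rose, and the early factors FOS (−1.37 ± 0.20) and FOSB (−1.02 ± 0.15) fell. In the EGF family 5 of 15 genes rose and 1 fell. For AREG, the ligand amphiregulin, the DMSO libraries gave 430.5, 481 and 499 normalized counts and the Met libraries 1415, 1267 and 1333. The AREG ranges of the groups did not overlap and the Met libraries were the higher ones, a log2 fold change of 1.51 (SE 0.11, adjusted p = 1.44e-07 by limma-trend). ADAM17 (1.10 ± 0.10), the protease that sheds such ligands, rose and the ligand NRG2 (−0.77 ± 0.15) fell. Of the other members, the receptors EGFR (0.72 ± 0.085) and ERBB3 (0.69 ± 0.19) rose. Of cytokines, chemokines and NF-kB genes, 6 of 29 tested members rose and 1 fell. With vehicle, PTGS2, the inducible cyclooxygenase COX-2, was measured at 344, 343 and 371 normalized counts, and with metformin at 945, 1019.5 and 794. PTGS2 showed no overlap between groups and stood higher with metformin, a log2 fold change of 1.37 (SE 0.15, adjusted p = 4.52e-06 by limma-trend). The neutrophil chemokine CXCL2 (0.91 ± 0.13) rose and the monocyte chemokine CCL2 (−0.96 ± 0.11) fell. Interferon-stimulated and antigen presentation genes were mostly lower where called, and 1 of 46 tested members rose and 10 fell. OASL, an interferon-induced antiviral protein, held 104, 109 and 112 normalized counts in the DMSO libraries and 49.1, 50.1 and 60.9 in the Met libraries. OASL was lower in each Met library than in any DMSO library, a log2 fold change of −1.01 (SE 0.16, adjusted p = 0.000113 by limma-trend). OAS3 (−0.97 ± 0.092), an enzyme of the same family, fell and IFIT2 (0.64 ± 0.15) rose. Early genes that rose and fell numbered 7 and 6 with TMM scaling, 9 and 4 with equal library totals, 6 and 4 without DMSO replicate 3, 8 and 6 without Met replicate 2 and 6 and 5 without Met replicate 3, in place of 5 and 6. EGF family genes that rose and fell numbered 3 and 1 with the GC and length trend removed, in place of 5 and 1. Cytokine genes that rose and fell numbered 3 and 1 with the GC and length trend removed, in place of 6 and 1. Leaving out 1 library ended the call for ERBB3 without Met replicate 3 (0.58), and for IFIT2 without DMSO replicate 3 (0.58) and Met replicate 2 (0.57). EGFR (0.49) and IFIT2 (0.43) were not called with the GC and length trend removed.

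Genes that hypoxia can induce rose in 8 of 29 cases and fell in 0. Normalized counts of STC2, a secreted glycoprotein that is also an ATF4 target, were 340.4, 301 and 341 in DMSO and 1218, 1022 and 1191 in Met. All 3 STC2 values with metformin lay above the 3 without it, a log2 fold change of 1.80 (SE 0.10, adjusted p = 1.13e-08 by limma-trend). LOX (1.21 ± 0.22), which crosslinks collagen, rose. HIF1A, the oxygen-regulated subunit, had a log2 fold change of −0.0882 and was not called. Of clock genes, 5 of 22 tested members rose and 0 fell. For NFIL3, a repressor of D-box clock genes, the DMSO libraries gave 384, 396 and 397 normalized counts and the Met libraries 1535, 1318 and 1295. The NFIL3 ranges of the groups did not overlap and the Met libraries were the higher ones, a log2 fold change of 1.81 (SE 0.10, adjusted p = 6.73e-09 by limma-trend). HLF (1.52 ± 0.31), an activator at the same sites, rose from a mean of 7.04 normalized counts. HLF passed the filter on the mean only through groups where it was higher. Among YAP, Notch and Wnt genes, 2 of 38 tested members rose and 6 fell. With vehicle, WNT7B, a Wnt ligand of epithelia, was measured at 3426, 3305 and 3880.2 normalized counts, and with metformin at 1269, 1301 and 1680.1. WNT7B showed no overlap between groups and stood lower with metformin, a log2 fold change of −1.33 (SE 0.14, adjusted p = 2.29e-06 by limma-trend). The Wnt target AXIN2 (−0.91 ± 0.12) fell, and the Notch targets HEY1 (0.99 ± 0.22) and HEYL (0.68 ± 0.17) rose. For the TGF-beta and BMP family, 7 of 40 genes rose and 4 fell. TGFBI, a matrix protein named for its induction by TGF-beta, held 247, 301 and 263 normalized counts in the DMSO libraries and 48.1, 58.6 and 77.1 in the Met libraries. TGFBI was lower in each Met library than in any DMSO library, a log2 fold change of −2.14 (SE 0.20, adjusted p = 8.37e-07 by limma-trend). The inhibitory SMAD6 (−1.23 ± 0.14) fell, and the stress cytokine GDF15 (1.80 ± 0.091) and the activin subunit INHBE (1.46 ± 0.46) rose, the latter from a mean of 5.58 normalized counts. INHBE, like HLF, passed the filter on the mean only through groups where it was higher. Clock genes that rose and fell numbered 8 and 0 with equal library totals, in place of 5 and 0. With 1 library left out, calls ended for HEYL without Met replicate 3 (0.55), and for INHBE without DMSO replicate 1 (1.37), DMSO replicate 2 (1.28) and Met replicate 3 (1.28).

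Structural genes had no common direction. Of collagens, laminins, integrins and matrix enzymes, 4 of 44 tested members rose (9.09%) and 6 fell (13.6%), near the 12.8% and 10.2% of all genes tested. Normalized counts of COL3A1, the chain of type III collagen, were 43.9, 29.6 and 53.2 in DMSO and 5.23, 5.67 and 8.12 in Met. All 3 COL3A1 values with metformin lay below the 3 without it, a log2 fold change of −2.54 (SE 0.41, adjusted p = 0.000133 by limma-trend). With a Met mean of 6.34, COL3A1 passed the filter on the mean only through groups where it was higher. COL1A1 (−1.15 ± 0.19), a chain of type I collagen, fell, and COL12A1 (0.90 ± 0.12), a collagen that binds fibrils, rose along with LOX. In the list of keratins, junctions and mesenchymal markers, 6 of 33 tested members rose and 10 fell. For ESRP1, an epithelial splicing factor, the DMSO libraries gave 5.77, 3.94 and 10.2 normalized counts and the Met libraries 20.9, 35.0 and 44.6. The ESRP1 ranges of the groups did not overlap and the Met libraries were the higher ones, a log2 fold change of 2.19 (SE 0.40, adjusted p = 0.000411 by limma-trend). ESRP1 is near the floor in DMSO and passed the filter on the mean only through groups where it was higher. The tight junction protein OCLN (1.41 ± 0.13) rose, whereas the intermediate filaments NES (−1.96 ± 0.17) and KRT19 (−1.26 ± 0.27) fell, nestin being known from progenitors and KRT19 from ducts. Among other members, the adhesion protein of epithelia CDH1 (1.07 ± 0.22) and the mesenchymal factor ZEB1 (0.62 ± 0.21) both rose, the first from a mean of 28.5 normalized counts. The abundant keratin KRT18 fell from 18307 ± 394 to 10421 ± 1033 normalized counts (SD, n = 3). COL3A1, COL1A1 and their fibroblast partners served as markers of another cell type too, and their summed level was 184 to 279 in DMSO and 90.7 to 134 in Met, with DCN at 0 in all 6 libraries. Matrix genes that rose and fell numbered 7 and 6 with equal library totals, in place of 4 and 6. The call was lost for ZEB1 without DMSO replicate 1 (0.54), DMSO replicate 3 (0.48), Met replicate 1 (0.60) and Met replicate 2 (0.50). ZEB1 (0.29) was not called with the GC and length trend removed.

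Beyond the lists, genes ranked 4 to 13 by rise among DEGs of mean 100 or more whose groups did not overlap included, besides members already described, LAMP3 (2.80 ± 0.086), ADM2 (2.79 ± 0.10), RAB39B (2.69 ± 0.11), STK32A (2.55 ± 0.14) and YPEL2 (2.38 ± 0.22). LAMP3 is a lysosomal membrane protein and ADM2 a peptide hormone, and RAB39B is a small GTPase of vesicle traffic. LAMP3 went from 236 ± 11.9 to 1649 ± 120.4 normalized counts (SD, n = 3). The same ranks by fall held 7 histones, TGFBI, NES and the adenosine receptor ADORA1 (−1.98 ± 0.16). Of the 10 DEGs with the highest mean, 6 fell besides the mitochondrial MT-ND2, namely ACTB (−0.82 ± 0.08), ENO1 (−0.61 ± 0.093), HSPA8 (−0.72 ± 0.071), PPIA (−0.59 ± 0.078), HSP90AB1 (−0.84 ± 0.057) and TPI1 (−0.60 ± 0.092). Actin, glycolytic enzymes, the isomerase PPIA and chaperones are common reference genes, and ACTB alone went from 269050.0 ± 11207 to 152804 ± 11113 normalized counts (SD, n = 3). Those that rose were the nuclear long non-coding RNA MALAT1 (1.81 ± 0.13), the autophagy receptor SQSTM1 (0.78 ± 0.10) and the ferritin gene FTH1. ACTB, PPIA, HSPA8, TPI1 and FTH1 have processed pseudogenes, so reads could be split between copies. MALAT1 lies on chromosome 11 from 65497688 to 65506516. Its values were 32048, 37516 and 33689.5 in DMSO replicates 1 to 3 and 116466, 123766 and 120955 in Met replicates 1 to 3, so the groups did not overlap. Its neighbour NEAT1 (2.02 ± 0.25), a scaffold of nuclear bodies chosen after its values were seen, rose likewise. Not every fit without 1 library kept the call, which was lost for PPIA without DMSO replicate 1 (−0.53), Met replicate 1 (−0.57) and Met replicate 2 (−0.58). PPIA (−0.47) was not called with equal library totals.

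The same dose of metformin was also given to cells that received FK866, and the contrast of Met+FK with FK shares no library with that of Met with DMSO. For 160 of the 162 genes picked by the rule, the estimate there pointed the same way. The exceptions were RRM2B (−0.12 with FK866) and ATM (−0.13). Only direction is compared by this count, and not every one of the 160 was shown to change with FK866. By limma-trend, TFEB (−0.0139, adjusted p = 0.939), DNAJB4 (0.0467, adjusted p = 0.893) and RAD50 (0.119, adjusted p = 0.659) did not pass there. The genes had been picked as DEGs of Met against DMSO, and no share over all DEGs is given beside the count. List medians had the same sign in 38 of 47 lists. Among those with the opposite sign, cytosolic ribosomal proteins had −0.0868 without and 0.17 with FK866, and the EGF family 0.36 and −0.000962. Side by side, the medians without and with FK866 were −1.505 and −0.995 for histones, −0.83 and −0.97 for DNA replication, −0.70 and −0.93 for mitosis, 0.41 and 0.44 for amino acid carriers, and 0.39 and 0.27 for regulators of the integrated stress response. For MALAT1 the log2 fold changes were 1.81 without and 0.83 with FK866, for SLC7A11 1.93 and 0.80, and for EPRS 1.19 and 0.61. In the test of the difference between these effects, MALAT1, SLC7A11 and EPRS (adjusted p = 0.0711, 0.104 and 0.111) did not pass an adjusted p-value of 0.05, and 2 of the named genes did, PTGS2 and ATF3. Without single libraries the adjusted p-value of this difference reached 0.181 for PTGS2 and 0.181 for ATF3.

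**Figure D5:**
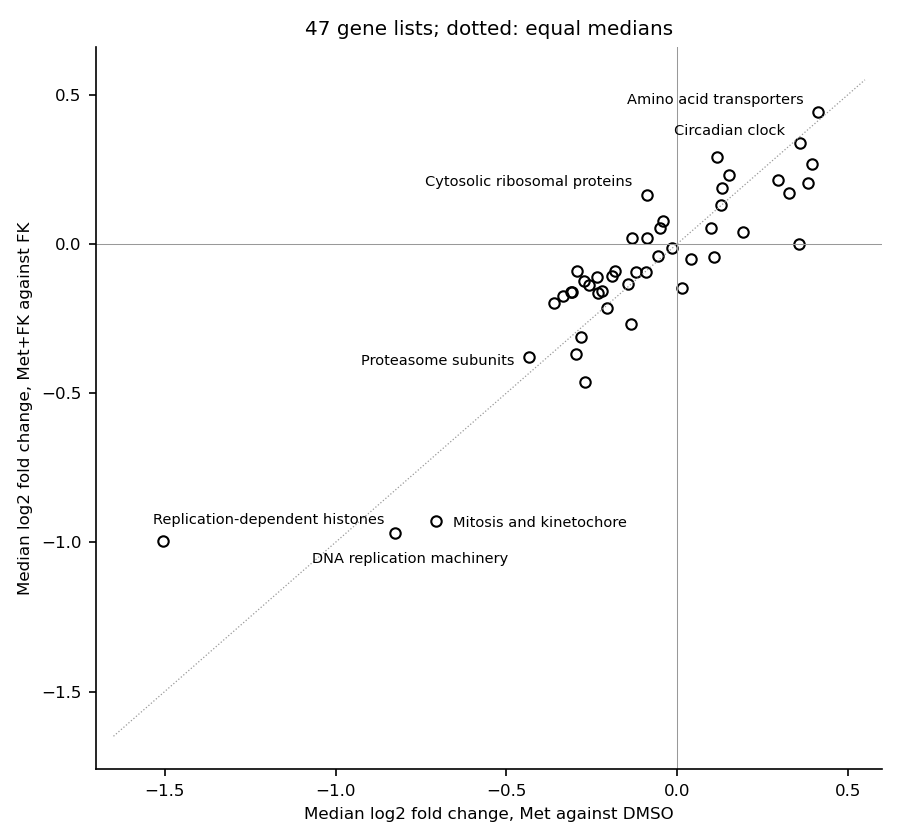
Median log2 fold change of the members of each list for metformin without FK866 (Met against DMSO, x axis) and with it (Met+FK against FK, y axis), with a dotted line of equal medians. The cell cycle lists lie at lower left and amino acid transporters at upper right, and histones lie above the line.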

How the data were processed

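Cells were lysed after 24 h, RNA was depleted of ribosomal RNA, and paired-end libraries were trimmed with cutadapt, aligned to hg38 with RNA STAR and counted per gene with featureCounts by the authors. The gene annotation and strand setting are not given in the sources used here. The deposited signal values are counts divided by DESeq2 size factors by the authors. Each value, times its library's size factor, gave a whole number of read pairs (100% of values within 0.01), and these numbers give the depth. Differences were tested with limma 3.58.1 (limma-trend, R 4.3.3) on log2(normalized count + 1) over all 12 libraries, with Benjamini-Hochberg adjustment over 15376 genes. A fold change is therefore on that scale and understates changes of low genes. GC content and biotype came from GENCODE 44, which held 36366 of 36601 identifiers, and promoters from RefSeq tables, matched for 11412 tested genes. The script was tested on simulated data.

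Named genes were, for each list, the 2 DEGs with the largest rise and the 2 with the largest fall, plus the DEGs ranked 4 to 13 in each direction (mean of 100 or more, groups that did not overlap) and the 10 with the highest mean. Values per library are given for the DEG of largest change of each list. Some named genes and 1 of the lists are not reported here. The members and lists were chosen with earlier results of these data known. Alternatives covered the pseudocount, the filter on low values, scaling (same total, TMM), samples in the fit, a replicate block, a trend on GC content and length, each library left out, edgeR 4.0.16 and DESeq2 1.42.0. Replicate libraries differed by more than sampling noise.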

Additional observations from a re-analysis of the deposited data

Results flagged for a closer look

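In the fit of all 12 libraries, 2 of the genes named above passed the test of the difference between metformin effects with and without FK866. Neither passed in most fits without 1 library. The metformin effect on PTGS2 was 1.37 without FK866 and 0.0807 with it on the log2 scale, a difference of −1.29 (SE 0.21, adjusted p = 0.0407 by limma-trend). The adjusted p for PTGS2 ranged from 0.0201 to 0.181 over the fits that each left out 1 of the 12 libraries. It was under 0.05 only without FK replicate 1 (0.0358) or FK replicate 2 (0.0201). The metformin effect on ATF3 was 2.62 without FK866 and 1.95 with it on the log2 scale, a difference of −0.67 (SE 0.11, adjusted p = 0.0407 by limma-trend). The adjusted p for ATF3 ranged from 0.0366 to 0.181 over the fits that each left out 1 of the 12 libraries. It was under 0.05 only without FK replicate 1 (0.0366). Over all tested genes the difference passed an adjusted p-value of 0.05 in 9, and in 0 to 1845 with 1 library left out, the highest count being that without FK replicate 1.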

How the results depend on the processing

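The numbers of genes that rose and fell, 1964 and 1566, stayed within 1.5 times under every alternative but 2. By the adjusted p-value alone 3834 genes were higher (24.9%) and 3989 lower (25.9%), and with equal library totals 2835 rose and 1025 fell. Leaving out 1 library gave 1741 to 2158 rising and 1372 to 1792 falling genes. On the recovered read pairs edgeR's quasi-likelihood test called 2142 and 1382 genes and DESeq2 1922 and 1497. Like counts do not show that the same genes were called. Of the 3530 DEGs of the main fit, 2479 were shared with the GC and length trend removed and 2989 with equal library totals. In the fit with a replicate block 2029 genes rose and 1613 fell, and 1535 and 1579 with the GC and length trend removed as well. The numbers are not shown to pair the libraries, since deviations of same-numbered libraries correlated at 0.0129, 0.328 and 0.248 across genes, 1 of them under 0.1, and DMSO replicate 1 correlated better with Met replicate 3 (0.162) than with Met replicate 1. With the GC and length trend removed they correlated at 0.073, 0.12 and 0.132, and the 6 pairs of unlike number at −0.108 to −0.00814.

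Of the 162 named genes 142 kept their call in all 6 fits that left out 1 of the compared libraries. Over the 18 alternatives 129 kept it in each one that tested them, and 0 changed sign. Low genes such as NUPR1, HKDC1, DUSP8 and CASP10 were not tested in the alternative that asked for at least 10 in every library. Same-total scaling lost 20 calls and removal of the GC and length trend 23. The cause was not tested. Of 47 list medians, 11 changed sign in at least 1 alternative. Shares of counts for the 3 gene classes moved by less than their spread with the other denominator. Among genes with a mean from 10 to 100 the median standard error of a log2 fold change was 0.27, so genes there that did not pass are not shown to be unchanged.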
